A study of Mus musculus with 27 samples.

Results

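The 10 cathepsin genes Ctsa, Ctsb, Ctsc, Ctsd, Ctsf, Ctsh, Ctsk, Ctsl, Ctss and Ctsz were followed through 27 sequencing libraries of a mouse macrophage line. They were taken by gene symbol from a table of 55483 genes. The list was selected on measured values of these data, namely the lower Ctsc level under the compound TM7nox. The members' values that compare LPS+TM7nox with LPS therefore describe the choice and carry no test here.

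Cathepsins are proteases of the endosome and lysosome. Most are papain-like cysteine proteases (Ctsb, Ctsc, Ctsf, Ctsh, Ctsk, Ctsl, Ctss and Ctsz), Ctsd is an aspartic protease, and Ctsa is a serine carboxypeptidase that also protects other lysosomal hydrolases. In macrophages they degrade phagocytosed protein and process antigen. Cathepsin C, also called dipeptidyl peptidase 1, activates serine proteases of granulocytes and other immune cells by trimming their amino-terminal dipeptide.

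RAW264.7 is an established line of mouse macrophages. All cells were harvested after 6 h. The control group had DMSO, a solvent, the second had LPS (1 µg/ml) with DMSO, called LPS here, and the third had the same LPS dose with 10 µM TM7nox; no group received TM7nox without LPS. LPS is a bacterial cell wall lipopolysaccharide that activates macrophages. TM7nox is a tanshinone mimic, a class of small molecules made to interfere with RNA binding by HuR. HuR, encoded by Elavl1, is an RNA-binding protein of U-rich and AU-rich stretches. Each treatment had 4 libraries of total RNA, 4 of RNA recovered with an anti-HuR antibody (ribonucleoprotein immunoprecipitation, RIP) and 1 of RNA recovered with control IgG, which was replicate 3 in every treatment. The labels number the replicates but do not say that they were separate cultures, so p-values measure the spread between these samples, which may be technical. A line in culture models a macrophage without its tissue.

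The libraries held 2728534 to 41449233 counts, and RNA DMSO replicate 1 was the shallowest by far. Levels are given in CPM, the usual depth-scaled read count, on 1 scale for all 27 libraries. The macrophage label fitted the markers: 9 of 10 macrophage markers averaged at least 1 CPM in RNA, and their summed level was 3440 to 6970 CPM per RNA library. Of 7 fibroblast and 7 lymphocyte markers, 0 reached 1 CPM on average. Fibroblast markers summed to at most 0.394 CPM in any RNA library and lymphocyte markers to at most 0.386 CPM. Changes are log2 values fitted to counts with edgeR's quasi-likelihood test. A gene was called when its adjusted p (FDR, Benjamini-Hochberg over all genes tested) was under 0.05. 

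The 10 genes together took 0.502% ± 0.0312 (SD, n = 4) of all counts in RNA DMSO, 0.612% ± 0.0463 in RNA LPS and 0.655% ± 0.111 in RNA LPS+TM7nox. Their share was lower in the RIP libraries, at 0.0796% ± 0.00974 in DMSO, 0.295% ± 0.0368 in LPS and 0.0996% ± 0.0299 in LPS+TM7nox. Most of the RIP LPS share was Ctsc, at 0.216% ± 0.0355, against 0.0238% ± 0.00531 in RIP DMSO and 0.0223% ± 0.00776 in RIP LPS+TM7nox. The other 9 genes together took 0.0558% ± 0.00506, 0.0795% ± 0.019 and 0.0773% ± 0.0234 in RIP DMSO, LPS and LPS+TM7nox. The single IgG libraries gave 0.599%, 0.727% and 0.692% in the same order. Shares of all counts also move with other RNAs. Mitochondrially encoded RNAs took 14.3% to 22.4% in RNA DMSO, 12.1% to 17.9% in RNA LPS and 15.9% to 19.4% in RNA LPS+TM7nox. In RIP they took 0.559% to 1.86%.

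Levels can be compared between genes only per length, so CPM was divided by the length of each gene's annotated exons in kb. In RNA DMSO the order began with Ctsb, an endopeptidase that also removes dipeptides from the carboxy terminus, at 164 ± 21.1 CPM per kb (SD, n = 4). It was followed by Ctss, the protease that degrades the invariant chain of MHC class II, at 129 ± 34.1. Ctsz, a carboxypeptidase, stood at 105 ± 11.3 and Ctsd at 101 ± 33.9. The gap between Ctsb and Ctss was about the size of the Ctss SD. The gaps from Ctss to Ctsz and from Ctsz to Ctsd were smaller than the larger SD of each pair. The order at the top is thus not firm. Ctsa followed at 69.3 ± 2.9 CPM per kb and the endopeptidase Ctsl at 34.3 ± 6.13. Ctsk, the collagen-degrading cathepsin of osteoclasts, and Ctsc were within their spread, at 10.4 ± 4.13 and 8.72 ± 2.31. Ctsf, a papain-like protease, was low at 2.12 ± 0.775, and Ctsh, an aminopeptidase, was near 0.

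LPS reordered the lower part of this list. In RNA LPS, Ctsb stood at 244 ± 8.7 CPM per kb (SD, n = 4), Ctss at 186 ± 35.9, Ctsz at 167 ± 11.4 and Ctsd at 121 ± 13.4. Ctsl rose to 75 ± 5.81, next to Ctsa at 70.2 ± 2.86, a gap within the spread. Ctsc followed at 45.2 ± 8.28, now above Ctsk at 9.34 ± 4.06. Lengths were taken over all exons of a gene, so a gene with long rarely used exons is set too low on this scale.

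**Figure D1:**
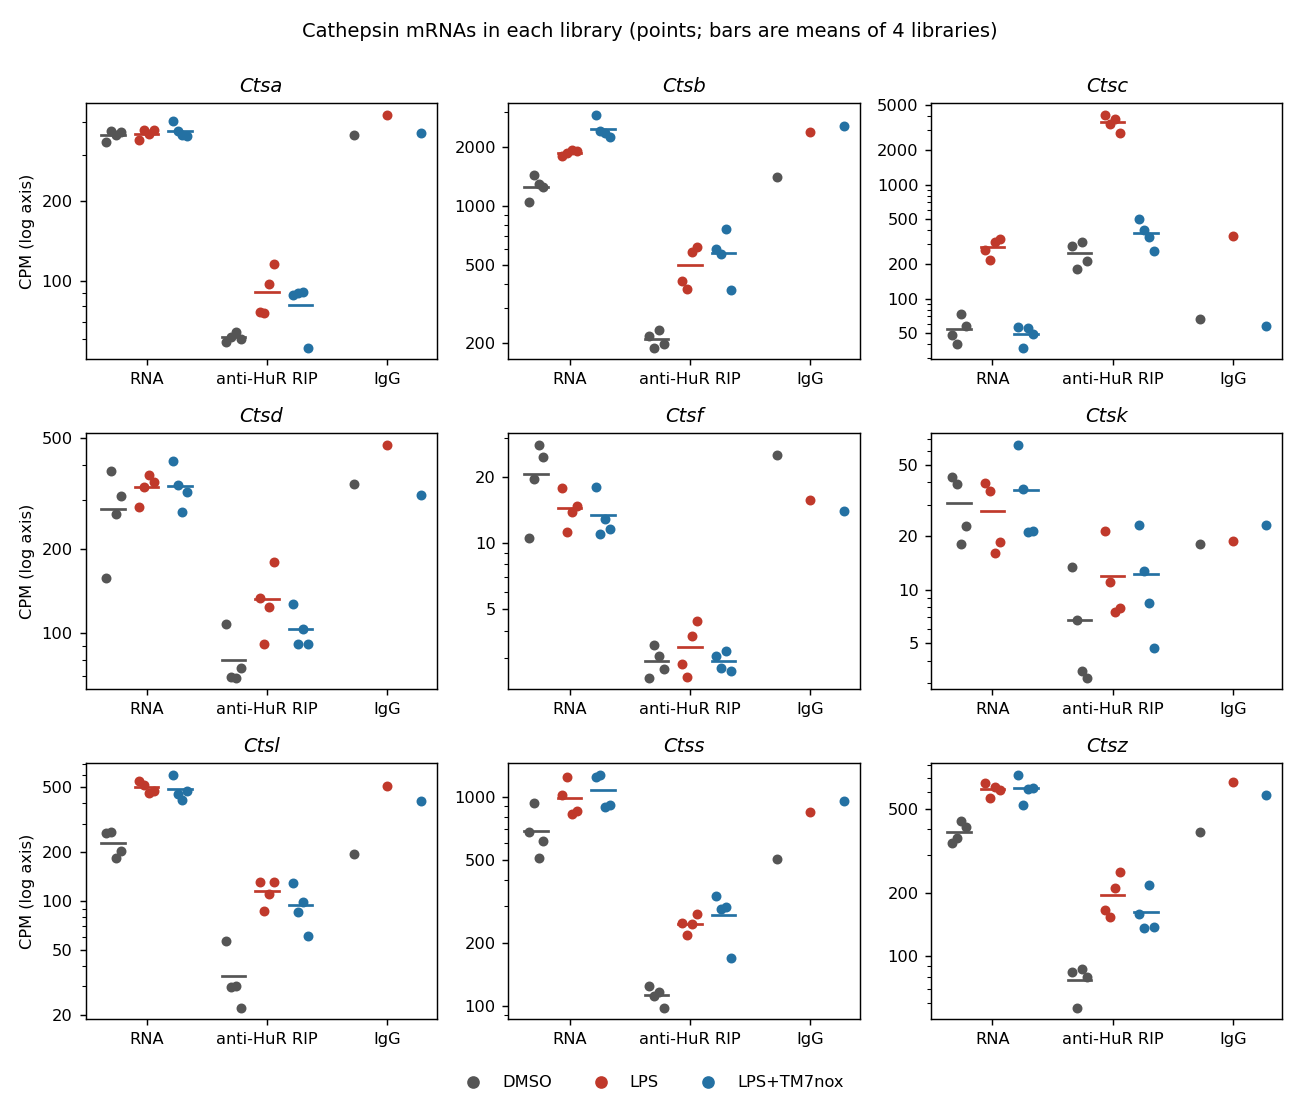
Normalised level (CPM, log axis, scaled separately in each panel) of 9 cathepsins in total RNA, anti-HuR RIP and IgG libraries; points are libraries, bars are means of 4, and Ctsh is left out because it was at 0 in many libraries. Ctsc is the gene whose RIP points lie above its RNA points, with 2850 to 4090 CPM in RIP LPS, and the other 8 have lower means in RIP than in RNA, with some overlap between libraries in Ctsk.

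LPS raised 4 cathepsin mRNAs in total RNA, namely Ctsc, Ctsl, Ctsz and Ctsb, and lowered 0. Among all 12369 genes tested, 20.2% were called higher and 21.7% lower. Of the 10 members, 9 passed the filter on low counts and 5 of these were not called. The median log2 change of the 9 was 0.50, against -0.04 for all genes tested. Bulk RNA cannot tell fewer cells from less RNA per cell, in this or any later comparison.

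Ctsc had 47.5, 39.9, 73.4 and 57.5 CPM in RNA DMSO replicates 1 to 4. In RNA LPS it had 268, 217, 313 and 334 CPM. The groups did not overlap, and the fitted change was 2.34 on the log2 scale (SE 0.203, FDR 6.04e-07), a 5.06-fold rise that placed it at rank 587 from the top. These LPS libraries also enter the contrast for which Ctsc was chosen, so its LPS test is not fully independent of the choice. Between same-numbered libraries the difference ranged only from 2.09 to 2.54.

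Ctsl had 262, 265, 185 and 203 CPM in RNA DMSO and 547, 516, 461 and 478 CPM in RNA LPS. Every LPS library was above every DMSO library, with a log2 change of 1.10 (SE 0.158, FDR 7.17e-05). Ctsz had 345, 364, 436 and 410 CPM in RNA DMSO and 661, 561, 635 and 615 CPM in RNA LPS, again without overlap. Its log2 change was 0.64 (SE 0.128, FDR 0.00108). Ctsb, the most abundant member, had 1040, 1430, 1300 and 1250 CPM in RNA DMSO and 1790, 1860, 1940 and 1900 CPM in RNA LPS. These groups also stayed apart, with a log2 change of 0.55 (SE 0.132, FDR 0.00415).

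Ctss and Ctsf were close to the threshold, and their calls depended on the setting. Ctss had 681, 935, 510 and 616 CPM in RNA DMSO and 1020, 1240, 827 and 857 CPM in RNA LPS. The groups overlapped, but each LPS library was above the DMSO library of its number by 0.408 to 0.697 on the log2 scale. The change was 0.50 (SE 0.204, FDR 0.0649), and with the replicate number as a block it was 0.51 (SE 0.0865, FDR 0.000327). Ctss was also called with RLE scaling (FDR 0.0456), with DESeq2 (0.0237), without the filter on low counts (0.00442), with replicates 3 and 4 alone (0.00062) and without RNA DMSO replicate 2 (0.019), and not with library totals (0.437) or with replicates 1 and 2 alone (0.219). Ctsf had 10.6, 19.7, 28.1 and 24.6 CPM in RNA DMSO and 17.9, 11.3, 13.8 and 14.7 CPM in RNA LPS. Only replicate 1, the shallow DMSO library, went upward with LPS. The log2 change of Ctsf was -0.58 (SE 0.245, FDR 0.0737), and with the block it was called lower at -0.62 (FDR 0.0375). Ctsf was also called lower without the filter (FDR 0.0376), with replicates 3 and 4 alone (7.98e-05), without RNA DMSO replicate 1 (-0.75, FDR 0.00892) and without RNA LPS replicate 1 (0.0427), and not with RLE scaling, DESeq2 or replicates 1 and 2 alone (0.947).

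Ctsa, Ctsd and Ctsk were not called in total RNA. Ctsa was nearly level, at 336 to 369 CPM in DMSO and 341 to 373 CPM in LPS, with a log2 change of -0.01 (SE 0.0963, FDR 0.918). Ctsd ranged from 158 to 382 CPM in DMSO and from 283 to 369 CPM in LPS, with a change of 0.23 (SE 0.204, FDR 0.4), and was called only with replicates 3 and 4 alone (0.32, FDR 0.0234). Its lowest value, 158 CPM, was in the shallow DMSO replicate 1. Ctsk had 42.8, 39.2, 18.0 and 22.8 CPM in DMSO and 39.6, 35.9, 16.0 and 18.5 CPM in LPS, with a change of -0.17 (SE 0.411, FDR 0.775).

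In Ctsk the replicate number set the level more than LPS did. Replicates 1 and 2 were above replicates 3 and 4 in all 3 RNA groups. The summed level of 9 osteoclast markers, 6 of them at 1 CPM or more on average, also differed by number. It was 240, 176, 59.9 and 60.8 CPM in RNA DMSO replicates 1 to 4. In RNA LPS it was 260, 159, 120 and 106 CPM, and in RNA LPS+TM7nox 118, 117, 64.2 and 63.0 CPM. The sum rested largely on Nfatc1 (101 ± 76.9 CPM in RNA DMSO and 64.2 ± 61.6 in RNA LPS) and, in LPS, on Mmp9 (73.6 ± 19.4). It therefore does not show that the markers in general followed the number. None of the 9 was at 0 in every library, but the defining receptor Calcr had only 3 counts over the 12 RNA libraries. The part of these markers in the Ctsk values was not tested.

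Ctsh was at the limit of detection. It had 0, 0, 2 and 0 counts in RNA DMSO, 15, 3, 2 and 3 counts in RNA LPS, and 0, 1, 1 and 0 counts in RNA LPS+TM7nox. Most of the LPS counts came from replicate 1. A count of 0 allows a level of up to 0.636 CPM in the shallowest RNA library and up to 0.0772 CPM in RNA DMSO replicate 2, counting error only. It did not pass the filter in any comparison and no fold change is given.

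The scaling matters for the smaller changes. When library totals were used without scaling factors, an alternative added after the data were seen, the median of all genes moved from -0.04 to -0.32 in this comparison. On that scale Ctsc and Ctsl were still called higher, Ctsb (0.26, FDR 0.155) and Ctsz (0.35, FDR 0.0713) were not, and Ctsa (-0.30, FDR 0.0408) and Ctsf (-0.85, FDR 0.015) were called lower. All changes given here are thus relative to the typical gene. With replicates 1 and 2 alone 2 members were called higher (Ctsc and Ctsl), and with replicates 3 and 4 alone 6 were higher and 1 lower. The split by number was chosen with earlier results of these data known. The labels give no batch, and whether these pairs of numbers form batches was not tested.

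In the RIP libraries LPS raised 7 of the 9 members tested, against 23.5% of 13614 genes called higher and 21.2% called lower, and 0 members fell. The median change was 1.11, against 0.00 for all genes (-0.00444). RIP levels follow both the amount of an mRNA and its recovery, so they are read beside total RNA.

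Ctsc had 288, 183, 312 and 214 CPM in RIP DMSO and 4090, 3430, 3770 and 2850 CPM in RIP LPS. The lowest LPS library was far above the highest DMSO library, and the log2 change of 3.81 (SE 0.251, FDR 8.5e-09) is a 14-fold rise. The RIP LPS libraries also enter the RIP contrast with TM7nox, which the choice of Ctsc may have used. This and all later tests of Ctsc with LPS or LPS+TM7nox libraries are thus not fully independent of the choice. Ctsl had 56.8, 29.7, 30.0 and 22.2 CPM in RIP DMSO and 131, 87.2, 110 and 132 CPM in RIP LPS, without overlap. Its change was 1.71 (SE 0.282, FDR 0.000147).

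Ctsz, Ctsb and Ctss rose by similar amounts in RIP. Ctsz went from 57.3 to 87.0 CPM in the DMSO libraries to 153 to 252 CPM in the LPS libraries (log2 1.32, SE 0.205, FDR 7.9e-05). Ctsb went from 188 to 231 CPM to 375 to 617 CPM (1.24, SE 0.216, FDR 0.000249). Ctss went from 98 to 125 CPM to 217 to 276 CPM (1.11, SE 0.196, FDR 0.000259). In all 3 genes the groups were apart.

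Ctsd and Ctsa were called in RIP with smaller changes, and with library totals neither was. Ctsd had 108, 69.6, 69.3 and 75.1 CPM in RIP DMSO and 134, 91.7, 124 and 180 CPM in RIP LPS (log2 0.69, SE 0.218, FDR 0.0168). Its groups overlapped through DMSO replicate 1. Its call was lost without RIP DMSO replicate 2 (FDR 0.0648), 3 (0.0715) or 4 (0.0501) or without RIP LPS replicate 4 (0.0806). Ctsa had 58.6 to 63.8 CPM in RIP DMSO and 75.2 to 116 CPM in RIP LPS, without overlap (0.56, SE 0.183, FDR 0.0213). Its call was lost on leaving out any 1 of the 4 RIP DMSO libraries (FDR 0.0561 to 0.064) or RIP LPS replicate 3 (0.0602) or 4 (0.0965).

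Ctsf, at 2.44 to 3.44 CPM in RIP DMSO and 2.47 to 4.40 CPM in RIP LPS, was not called (0.19, SE 0.229, FDR 0.531). Ctsk was not called either (0.81, SE 0.498, FDR 0.201), but with the replicate block its change was 0.90 (SE 0.164, FDR 0.000173), and it was also called without the filter (FDR 0.00341), with replicates 3 and 4 alone (0.0108) and without RIP DMSO replicate 1 (0.039). Replicate 1 was again highest in both groups, at 13.4 and 21.3 CPM. With library totals the median of all genes moved to -0.63 and 4 members were called higher; Ctsd, Ctsa and Ctss (0.49, FDR 0.0632) were then not called, and Ctsa was at -0.06. With replicates 1 and 2 alone 5 members were called higher, and with replicates 3 and 4 alone 8.

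**Figure D2:**
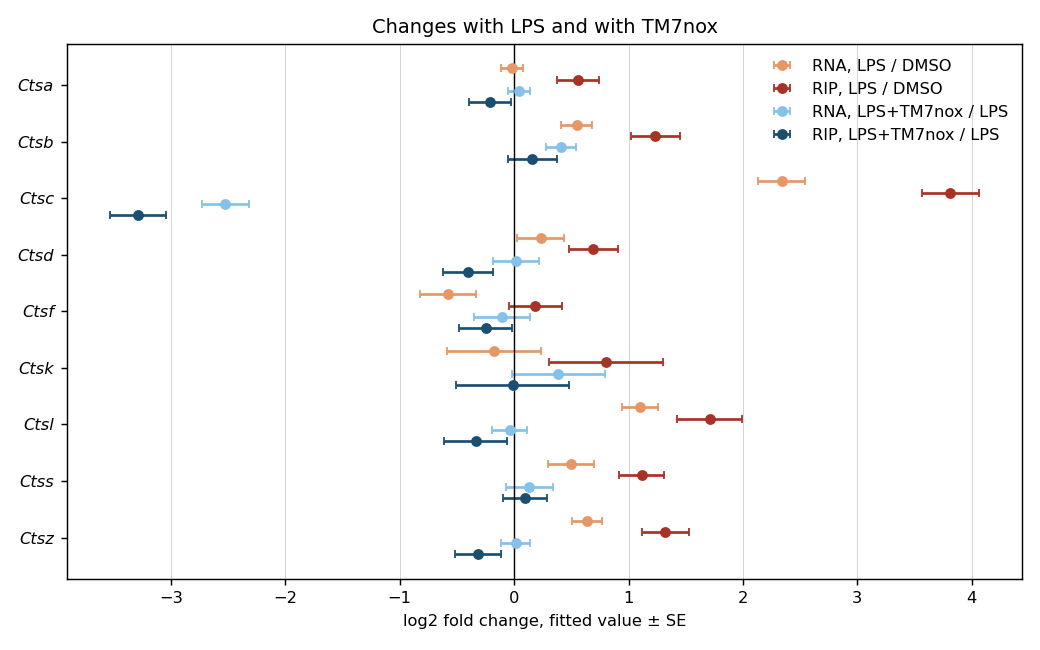
Fitted log2 fold changes (points) with standard errors (bars) of 9 cathepsins, for LPS against DMSO and LPS+TM7nox against LPS in RNA and RIP. Ctsc goes from 2.34 and 3.81 with LPS to -2.52 and -3.29 with TM7nox, while the TM7nox values of the other 8 lie between -0.40 and 0.41.

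Recovery with anti-HuR set Ctsc apart from the other members. Relative to total RNA, Ctsc was higher in RIP in every treatment and the other 8 tested were lower. Background shares were 37.0% of 14311 genes called higher and 33.4% lower in DMSO, 32.9% and 30.8% in LPS, and 35.2% and 34.8% in LPS+TM7nox. The median of the members was -2.43 in DMSO, -1.91 in LPS and -2 in LPS+TM7nox, against 0.04, -0.06 and -0.09 for all genes. Low recovery was not particular to cathepsins: of 10 macrophage markers, 9 were called lower in DMSO and 0 higher (median -1.77). Of 16 genes of cathepsin activation and sorting, described below, 11 were lower and 1 higher (median -0.98). Of 6 regulators of lysosomal genes, 1 was lower and 4 higher (median 0.629). The counts of 1 higher and 8 lower were the same with replicates 1 and 2 alone and with replicates 3 and 4 alone.

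For Ctsc the ratio of RIP CPM to RNA CPM in same-numbered libraries was 6.07, 4.58, 4.25 and 3.73 in DMSO. It was 15.2, 15.8, 12.1 and 8.53 in LPS and 8.83, 10.8, 6.30 and 5.33 in LPS+TM7nox. All 12 ratios were above 1, and every LPS ratio was above every DMSO ratio. The fitted log2 values were 2.29 (SE 0.233, FDR 3.5e-09) in DMSO, 3.65 (SE 0.246, FDR 1.94e-12) in LPS and 2.91 (SE 0.238, FDR 6.6e-11) in LPS+TM7nox. The LPS and LPS+TM7nox values share libraries with the contrast behind the choice of Ctsc, and the DMSO value does not. Ctsc was at or above 80.7%, 93.5% and 85.9% of all genes in these treatments, so many mRNAs were recovered more strongly.

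The 8 other members had ratios below 1 in every pair of libraries, the highest being 0.683 for Ctsd in DMSO replicate 1. Their fitted values in DMSO ran from -1.70 for Ctsd (SE 0.239, FDR 7.88e-07) to -2.76 for Ctsf (SE 0.253, FDR 5.64e-10). Ctsa (-2.43), Ctsb (-2.49), Ctsl (-2.59) and Ctss (-2.49) were among the lowest 1.4% of genes in DMSO, and Ctsf among the lowest 0.482%. In LPS the values ran from -1.18 for Ctsk to -2.12 for Ctsl, and in LPS+TM7nox from -1.53 for Ctsk to -2.38 for Ctsl. Ctsk in LPS was the least firm (SE 0.475, FDR 0.0336): its call was lost with RLE scaling (FDR 0.0793), with DESeq2 (FDR 0.0987) and on leaving out RNA LPS replicate 1 or 2 or RIP LPS replicate 2, 3 or 4 (FDR 0.0739 to 0.102). With library totals the median of all genes moved to -0.72, -1.06 and -1.07 in the 3 treatments, and Ctsc was still the only member above 0, at 1.51 in DMSO, 2.65 in LPS and 1.92 in LPS+TM7nox.

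**Figure D3:**
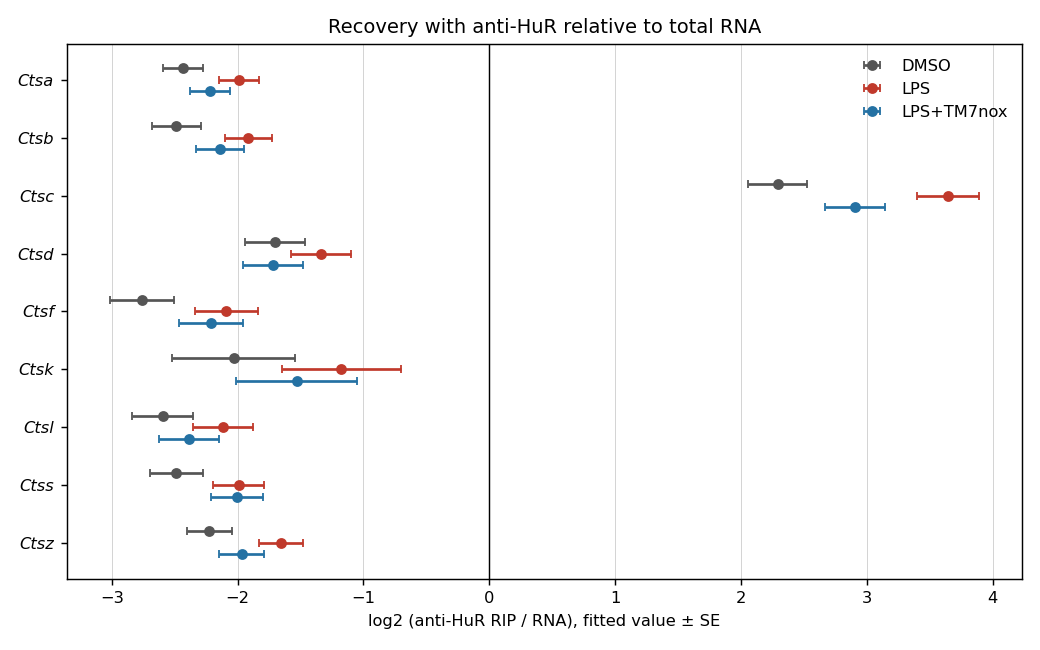
Fitted log2 ratio of anti-HuR RIP to total RNA (points) with standard errors (bars) for 9 cathepsins in the 3 treatments, with 0 for the typical gene. Ctsc lies at 2.29 to 3.65 and the other 8 between -2.76 and -1.18.

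Control IgG gave the same separation, in a comparison that uses the same RIP libraries and is therefore not independent of the one with RNA. Over 15 libraries, with treatment as a covariate, Ctsc was higher with anti-HuR than with IgG (log2 2.57, SE 0.280, FDR 1.17e-07) and the other 8 tested were lower. Of 14973 genes, 33.8% were called higher and 34.2% lower. The lower values ran from -1.01 for Ctsk (SE 0.392, FDR 0.028) to -2.59 for Ctsf (SE 0.172, FDR 1.9e-10). The Ctsk call was lost with RLE scaling (FDR 0.0548) and with DESeq2 (FDR 0.118), and on leaving out RIP LPS replicate 2 (0.0506), RIP LPS+TM7nox replicate 2 (0.0512), the DMSO IgG library (0.181) or the LPS+TM7nox IgG library (0.0656). Ctsc had 65.9, 351 and 57.6 CPM in the IgG libraries of DMSO, LPS and LPS+TM7nox. These are 1.21, 1.24 and 1.17 times its mean RNA level, and for the 9 members tested the IgG level was 0.588 to 1.42 times the mean of RNA. Every IgG library is replicate 3, and in RNA replicate 3 Ctsc had 73.4, 313 and 54.7 CPM. Ctsk, which gave the 0.588, had 18.1, 18.8 and 23 CPM in IgG. In RNA replicate 3 it had 18, 16 and 21 CPM, so its low ratios come from the other RNA replicates. RNA recovered with IgG thus held the cathepsins at about their proportions in total RNA, from 1 library per treatment.

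With all libraries the ratio of RIP to RNA was higher in LPS for all 9 members, by 0.36 to 1.35 on the log2 scale, but 0 members passed the test of that change. The median was 0.57 for the members, 0.48 for the macrophage markers and 0.02 for all genes. With replicates 1 and 2 alone Ctsf was at -0.141 and Ctsd at 0.0756. Of 14311 genes 6 were called, 0.0419%. At an unadjusted p under 0.05, edgeR gave 1041 genes (7.27%), among them 4 members (Ctsa, Ctsb, Ctsc and Ctsz). Ctsc had the largest value of the members, 1.35 (SE 0.315, FDR 0.148). With the replicate number as a block it was called (1.37, SE 0.266, FDR 0.0205), as it was with DESeq2 (FDR 0.00586) and without the filter on low counts (FDR 0.000557). With replicates 1 and 2 alone its value was 1.40 (FDR 1) and with replicates 3 and 4 alone 1.25 (FDR 0.13). With library totals the median of all genes moved from 0.02 to -0.21.

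The 3′ untranslated region (UTR) is where HuR is best known to bind, so U-rich stretches were counted there in 1 GENCODE M39 transcript per gene (GRCm39). Counts are given per kb, overlapping matches included. The Ctsc UTR has 986 bases, of which 31.4% are U, and holds 12 matches to UUUUU (12.2 per kb) and 3 to AUUUA. Across 10985 coding genes tested that have such a UTR, the medians were 29.2% U, 4.15 UUUUU per kb and 1.38 AUUUA per kb. A density at least that of Ctsc was found in 11.6% of them.

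Other cathepsins had U runs at various densities. Ctsa had 10.5 UUUUU per kb, Ctss 9.05 and Ctsl 6.51, with RIP over RNA in DMSO at -2.43, -2.49 and -2.59. Ctsd had none, with -1.70. Ctsk had the most AUUUA per kb, 6.01, with -2.03. The densest stretch of 29 bases of each is shown for the 4 members with the most UUUUU per kb, and for Ctsk the stretch with the most AUUUA. Capitals mark the matches and positions are counted from the first base of the UTR.
Ctsc, 137 to 165: cauccuugaUUUUUUUcuuuuaauaucuu
Ctsa, 1492 to 1520: UUUUUUUUUUUcuuuugucUUUUUUUUUU
Ctss, 127 to 155: uaUUUUUacacccuguugucuaguguuuu
Ctsl, 1066 to 1094: auaauguagaUUUUUUUUUUUUUUUUUUU
Ctsk, 416 to 444: aaauaaaguaucucAUUUAcaAUUUAaua
The longest unbroken runs of U are in Ctsa and Ctsl. These are matches to letters and not measured binding sites, and which UTR isoform the cells use was not examined.

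**Figure D4:**
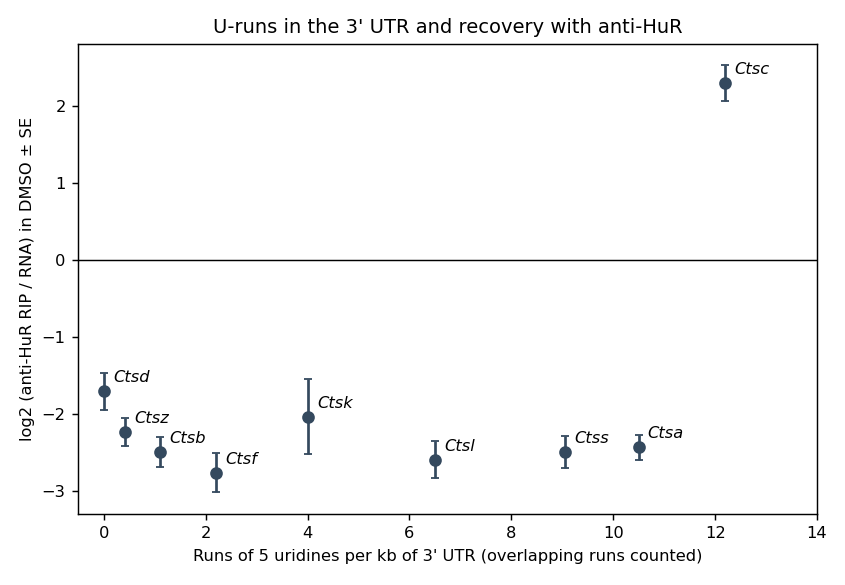
Runs of 5 uridines per kb of 3′ UTR (x axis) against the fitted log2 ratio of anti-HuR RIP to RNA in DMSO (y axis, bars are standard errors), 1 point per cathepsin for 9 genes. Ctsc stands alone at 12.2 per kb and 2.29, while Ctsa at 10.5 per kb lies at -2.43.

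TM7nox brought Ctsc back to about its DMSO level in total RNA, and this is the pattern for which it was chosen. Ctsc had 268, 217, 313 and 334 CPM in RNA LPS and 55.9, 37.0, 54.7 and 49.0 CPM in RNA LPS+TM7nox. The fitted change was -2.52 (SE 0.204), a 5.75-fold lower level, at rank 41 from the bottom of 12369 genes. In the same fit LPS+TM7nox stood at -0.18 (SE 0.195) from DMSO. The other 8 lay between -0.10 and 0.41, with Ctsb at 0.41 (SE 0.132) and Ctsk at 0.39 (SE 0.407). Ctsb had 2920, 2410, 2350 and 2240 CPM in RNA LPS+TM7nox, all above its 4 LPS libraries.

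Ctsl, Ctsz and Ctss, raised by LPS in RNA or RIP, kept about their LPS level in RNA with TM7nox. Ctsl had 600, 454, 417 and 477 CPM in RNA LPS+TM7nox (-0.04 from LPS, SE 0.156, and 1.06 from DMSO). Ctsz had 724, 521, 621 and 624 CPM (0.01 from LPS, SE 0.127). Ctss had 1240, 1280, 892 and 911 CPM (0.13 from LPS, SE 0.203).

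In RIP, Ctsc had 494, 399, 345 and 262 CPM with LPS+TM7nox, against 2850 to 4090 CPM with LPS. The fitted change was -3.29 (SE 0.245), 9.75-fold lower, at rank 14 from the bottom of 13614 genes. From DMSO it stood at 0.53 (SE 0.225). The other 8 lay between -0.40 (Ctsd) and 0.16 (Ctsb) with all libraries. These small values depended on the libraries used: Ctsa was at 0.203 with replicates 1 and 2 alone and at -0.563 with replicates 3 and 4 alone, and Ctsb ranged from -0.11 to 0.527 over the settings, while Ctsc stayed between -3.46 and -3.11. The ratio of RIP to RNA of Ctsc moved by -0.74 (SE 0.314) with TM7nox, and that of the other members by -0.38 to -0.01. Comparisons with LPS and with DMSO share these LPS+TM7nox libraries, so they are given side by side only.

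The genes with the RNA profile nearest to Ctsc were found by the root mean square difference of centred log2 CPM over the 12 RNA libraries, among 5094 genes. They were Abca1 (0.383), a cholesterol exporter, Arc (0.506), Mt1 (0.553), a metallothionein, Ubash3b (0.557) and Tnip3 (0.585). Abca1 had a log2 change of 2.74 (SE 0.143) with LPS and -2.48 (SE 0.139) with TM7nox. Such likeness in RNA follows from the search itself, which used the same libraries. Their log2 ratios of RIP to RNA in LPS were -1.02, -0.114, -1.78, 1.53 and -0.967 in the same order, against 3.65 for Ctsc. Nearest to Ctsl were Tm9sf4 (0.118), Acot7 (0.130), M6pr (0.140), Por (0.154) and P4ha1 (0.157). M6pr encodes the mannose 6-phosphate receptor that carries lysosomal enzymes, cathepsins among them, to endosomes.

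Other genes of the cathepsin system were followed with LPS in total RNA, where 20.2% of all genes tested were called higher and 21.7% lower. Of 13 other cathepsin genes 2 passed the filter and 1 was called higher: Ctso went from 9.40 ± 2.55 to 14.3 ± 1.12 CPM (SD, n = 4; log2 0.54, FDR 0.0183). Ctse stood at 7.09 ± 3.57 and 7.65 ± 4.32 CPM (FDR 0.955). Ctsw and Ctsg did not pass the filter, at means of 0.0381 and 0.00859 CPM over the RNA libraries. The Ctso call was lost with library totals, with replicates 1 and 2 alone and without RNA LPS replicate 2.

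Of 20 cathepsin inhibitor genes 5 passed the filter, and 2 were called higher and 0 lower. Cst3, the secreted cystatin C, stood at 422 ± 102 CPM in DMSO and 428 ± 63.7 in LPS (FDR 0.979). Cstb, an intracellular cystatin, stood at 52.0 ± 19.8 and 80.6 ± 25.9 CPM (FDR 0.0926). Serpinb6a rose from 47.2 ± 6.45 to 69.9 ± 10.7 CPM (log2 0.54, FDR 0.00702). Serpina3f, a serpin, went from 0.00804 ± 0.0161 to 11 ± 5.91 CPM, and no fold is given because its DMSO libraries were at or near 0. It passed the filter only through libraries with LPS, where it is high. Its call (FDR 2.13e-06), counted among the 2 above, is therefore not read as a result.

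All 16 genes of activation and sorting passed the filter, with 2 called higher and 4 lower, near the shares over all genes. M6pr rose from 239 ± 31.0 to 464 ± 22.3 CPM (log2 0.92, FDR 5.49e-05). Lrp1, an endocytic receptor that can take up secreted lysosomal enzymes, fell from 828 ± 48.8 to 455 ± 101 CPM (log2 -0.90, FDR 0.00451). Psap, the precursor of the saposins, stood at 373 ± 23.9 and 345 ± 16.1 CPM (FDR 0.372). Lgmn, the legumain that cleaves single-chain cathepsins, stood at 223 ± 51.3 and 205 ± 44.5 CPM (FDR 0.525).

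Among 6 transcription factors and regulators of lysosomal genes 2 were called higher and 1 lower, beside the same shares of all genes. Tfe3 rose from 53.5 ± 5.23 to 76.9 ± 7.24 CPM (log2 0.49, FDR 0.00456) and Tfec from 5.33 ± 1.32 to 9.75 ± 1.64 CPM (log2 0.81, FDR 0.00158). Mitf stood at 59.6 ± 19.0 and 84.1 ± 13.0 CPM (FDR 0.112) and Flcn, a regulator of Tfe3, at 22.2 ± 5.68 and 15.5 ± 4.69 CPM (FDR 0.0701). With the replicate block 5 of the 6 were called. With TM7nox, Tfec stood at 20.1 ± 1.51 CPM and Flcn at 28.1 ± 6.31 CPM. As a description, the median log2 difference of LPS+TM7nox from LPS in RNA was 0.31 for the other cathepsins, 0.07 for the inhibitors, -0.00308 for activation and sorting and 0.16 for the regulators, against -0.0026 for all genes. Over the settings and with each library left out these medians ranged from 0.208 to 0.487, -0.193 to 0.411, -0.178 to 0.0391 and 0.113 to 0.24 in the same order, so the sign for the inhibitors and for activation and sorting depends on single libraries (without RNA LPS replicate 1 they were -0.193 and 0.0391, and without RNA LPS+TM7nox replicate 1 activation and sorting was -0.178).

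Of the 10 macrophage markers 5 were called higher with LPS and 1 lower, beside the same 20.2% and 21.7% of all genes. Cd14, a co-receptor for LPS, rose from 630 ± 143 to 1760 ± 134 CPM (log2 1.45, FDR 2.8e-05), and Csf1r, the receptor of the growth factor M-CSF, fell from 694 ± 96.3 to 216 ± 72 CPM (log2 -1.71, FDR 0.000188). Lyz2 stood at 3820 ± 569 and 2630 ± 775 CPM (FDR 0.147) and Cd68 at 378 ± 77.2 and 411 ± 102 CPM (FDR 0.791). Of 6 osteoclast markers tested 1 was called, Mmp9, which rose from 3.88 ± 2.08 to 73.6 ± 19.4 CPM (log2 4.38, FDR 1.21e-06). With TM7nox, as a description, 4 of the 10 macrophage markers were called lower than in LPS and 0 higher in RNA (median log2 -0.41), and 6 lower and 0 higher in RIP (median -0.96), beside 6.40% of all genes lower and 7.37% higher in RNA, and 7.61% lower and 8.64% higher in RIP. Of the 6 osteoclast markers tested 1 was called lower in each (medians -0.32 and -0.28). The summed level of the macrophage markers was 5060 to 6970 CPM in RNA LPS and 3440 to 6220 CPM in RNA LPS+TM7nox. The part of these shifts in the cathepsin values, Ctsc included, was not tested.

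Tfe3, Mitf, Tfec and their relative Tfeb bind the letters CACGTG, an E-box, so it was searched on both strands in the 300 bases around the starts that RefSeq gives (250 before and 50 after, GRCm38.p6). RefSeq entries were found for 8 members, with 2 starts for Ctsa, and none were at hand for Ctsb and Ctsh. A match was present in 4 of the 8: Ctsa (at 1 of its 2 starts), Ctsd, Ctsf and Ctsl. Of 32851 promoters of the same length, 7.15% hold it. Of the 4 with a match, Ctsl rose with LPS in RNA, and Ctsa, Ctsd and Ctsf were not called. Ctsc, with the largest LPS response of the members, has no CACGTG in this window, and neither have Ctsk, Ctss and Ctsz. A further 4 motifs were searched in the same windows on both strands. The gamma site TTCNNNGAA was found once in Ctsc (8.3% of all promoters hold it) and the ISRE core once in Ctss (3.44%). The AP-1 motif TGANTCA (7.81%) and the kappaB motif (0.411%) were found in none of the 8.

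The Ctsd and Ctsc windows are printed to show the difference, 5′ to 3′ on the strand of the gene, with CACGTG in capitals. Ctsd is at chr7:142387778-142388077 (minus strand) and Ctsc at chr7:88277835-88278134 (plus strand), both on GRCm38.p6.
Ctsd: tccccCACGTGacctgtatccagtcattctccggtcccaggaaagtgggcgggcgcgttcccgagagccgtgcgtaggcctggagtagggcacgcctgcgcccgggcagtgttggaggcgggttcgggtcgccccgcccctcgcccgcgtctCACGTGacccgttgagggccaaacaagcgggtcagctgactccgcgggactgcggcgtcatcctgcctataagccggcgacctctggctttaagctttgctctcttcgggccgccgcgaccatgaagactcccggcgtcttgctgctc
Ctsc: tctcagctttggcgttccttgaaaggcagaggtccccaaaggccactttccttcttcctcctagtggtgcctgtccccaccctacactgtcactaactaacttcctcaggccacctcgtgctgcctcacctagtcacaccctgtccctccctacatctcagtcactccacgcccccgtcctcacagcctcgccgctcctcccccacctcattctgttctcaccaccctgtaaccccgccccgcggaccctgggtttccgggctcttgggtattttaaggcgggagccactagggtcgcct
The match is present at 2 places in Ctsd. No measurement of binding or chromatin was made at these windows.

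On GRCm39 the Ctsc gene lies at chr7:87927092-87960096 on the plus strand, and no other annotated gene overlaps it. Ctsk (chr3:95406178-95416732) and Ctss (chr3:95433963-95463717) are neighbours on the plus strand of chromosome 3, and neither was called with LPS in RNA in the main test. Ctsa overlaps Neurl2 and Pltp on the other strand, Ctsb overlaps Fdft1, Ctsf overlaps Actn3, and Ctsz overlaps Nelfcd. Ctsl overlaps the predicted genes Gm49230 on its own strand and Gm47123 on the other, Ctsd overlaps Gm49369 and Ctss overlaps Hmgb1-ps5 on their own strands. Whether counting used the strand is not given in the sources used here, so reads in these overlaps could have been assigned to either gene or to none, and the values of these 7 genes are uncertain to that extent.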

How the data were processed

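Total RNA (12 libraries), anti-HuR RIP (12) and control IgG (3) were grouped by the labels' assay and treatment. The authors deposited raw counts, whole reads per gene with no normalization, for 55483 genes. Per the submitters' processing notes, FastQC 0.11.9, STAR, HTSeq, DESeq2 and the build GRCm39 were used. Neither annotation release nor strand setting is given by the sources used here. Per the labels' protocols, libraries were made with a stranded kit, and no molecular identifiers are stated, so floors for a count of 0 (3 counts) cover counting error only. All columns mapped to samples (0 unmapped). Library totals ran from 2728534 to 41449233 counts, and values resting on fewer than 10 counts are uncertain.

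Counts were fitted with edgeR 4.0.16 in R 4.3.3 (two-sided quasi-likelihood F tests, TMM scaling, filterByExpr with a minimum count of 10, Benjamini-Hochberg adjustment over all genes tested, called under 0.05). RNA (12 libraries), RIP (12), RNA with RIP (24) and RIP with IgG (15, treatment as a covariate) were fitted separately. CPM used TMM factors over all 27 libraries. Alternatives were RLE scaling, DESeq2 1.42.0, no filter, the replicate number as a block, replicates 1 and 2 or 3 and 4 alone, each library left out and, added after the data were seen, library totals.

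The members, gene lists and alternatives were chosen with earlier results of these data known. The rule for names took all 10 members, the 4 most abundant genes of each list and the 5 genes nearest in RNA profile to Ctsc and to Ctsl (mean of at least 20 CPM, log2 CPM with a prior count of 2, no predicted symbols). Same-numbered libraries deviated together, with correlations of 0.321 to 0.758 in 7 pairs of groups, each best with its own number, so the numbers were taken to pair the samples. The main tests were fitted without the number, and the blocked value is given where it changes a call. Within groups, no 2 libraries agreed within sampling noise (chi-square per gene of at least 38.0). Tested on simulated counts for RNA LPS against DMSO (12177 genes), the fit recovered 75% of genes changed by 1 on the log2 scale and 100% of those changed by 2, with 4.37% false calls. For the change of RIP over RNA by LPS (13551 genes) it recovered 26% and 99%, with 7.41% false calls. The simulation gave every gene the same spread, did not pair libraries and changed only well-counted genes. These rates may therefore not hold for members with a wider spread, such as Ctsk.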

Additional observations from a re-analysis of the deposited data

Results flagged for a closer look

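Within the groups of 4 libraries, 60 sets of values were checked for 1 library far from the other 3, and 6 were found; chance gives about 1 in 20. Ctsa had 55.7 CPM in RIP LPS+TM7nox replicate 4, against 88.2 to 90.5 CPM in the other 3 libraries. Ctsd had 108 CPM in RIP DMSO replicate 1, against 69.3 to 75.1 CPM. The other 4 were values of Ctsh and rest on 15 counts or fewer. Ctsh had 0.641 CPM in RNA LPS replicate 1, against 0.0687 to 0.0967 CPM. It had 0.0643 CPM in RNA DMSO replicate 3, 0.102 CPM in RIP DMSO replicate 1 and 0.0849 CPM in RIP LPS+TM7nox replicate 1, where the other 3 libraries of the group were at 0.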

How the results depend on the processing

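Of 1548 recomputed values for 90 results, 1472 kept their direction and their side of the threshold or stayed within the spread. In RNA, LPS against DMSO, the 4 members called higher became 2 with library totals and 2 with replicates 1 and 2 alone, 5 with RLE scaling, DESeq2, no filter, the block or without RNA DMSO replicate 2, and 6 with replicates 3 and 4 alone. The 0 members called lower became 1 without the filter, 2 with library totals, 1 with the replicate block and 1 with replicates 3 and 4 alone, and 0 to 1 on leaving out a library. Among lists, the 3 transcription factors called became 5 without the filter, 5 with the block, 1 with replicates 1 and 2 and 5 with replicates 3 and 4. The 1 other cathepsin called became 0 with library totals, 0 with replicates 1 and 2, and 0 to 1 on leaving out a library. The 2 inhibitors called became 3 with DESeq2, without the filter and with the block, 1 with library totals, 1 with replicates 1 and 2, 4 with replicates 3 and 4, and 2 to 4 on leaving out a library (4 without RNA LPS replicate 1). The 6 genes of activation and sorting called became 8 with the block, 10 with library totals, 1 with replicates 1 and 2 and 11 with replicates 3 and 4. In RIP, LPS against DMSO, 7 members called higher became 4 with library totals. For the change of RIP over RNA by LPS, 0 became 1 (Ctsc) with DESeq2, without the filter and with the block. With TM7nox in RNA, a contrast that the choice of members used, the count of members past the threshold and higher was 0, 1 with DESeq2 and 2 with the block, and nothing is read from it. Apart from these and the calls of Ctss, Ctsf and Ctsk given in the report, the block moved no member's test over the threshold.

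Among tested values, signs turned in 13. In RNA with LPS, Ctsa became 0.03 with RLE scaling (0.0341) and DESeq2 (0.0346), 0.0449 without the filter, 0.0251 and 0.0254 in the 2 pairs of replicates, and -0.024 to 0.00542 on leaving out a library (0.00542 without RNA LPS replicate 1). Ctsd became -0.0435 with library totals, and Ctsk ran from -0.407 to 0.0428 on leaving out a library, positive without RNA DMSO replicate 1 (0.0428) or RNA LPS replicate 3 (0.0194). In RIP with LPS, library totals turned Ctsa, called at 0.556, to -0.0636 and Ctsf from 0.187 to -0.434, and replicates 1 and 2 alone gave Ctsf -0.193 and, for the change of RIP over RNA (0.67 with all libraries), -0.141. With TM7nox, described without a test, the sign of Ctsc held in RNA (-2.63 to -2.39), in RIP (-3.46 to -3.11) and in the change of RIP over RNA (-0.872 to -0.58), while small values of other members turned. Examples are Ctsa in RIP (0.203 with replicates 1 and 2, -0.563 with 3 and 4) and in the change (0.136 with 1 and 2), Ctsf in RIP (0.0905 with 1 and 2), Ctsd in RNA (0.288 and -0.258 in the pairs) and Ctsk in RNA (-0.0601 without RNA LPS+TM7nox replicate 1). The cause of these turns was not tested, except that library totals shift all genes. Genes called over the whole table moved by more than 1.5 times as follows. RNA with LPS went from 5190 to 1668 with replicates 1 and 2. RNA with TM7nox went from 1704 to 3091 with the block, 168 and 3489 in the 2 pairs. RIP with LPS went from 6090 to 3392 with replicates 1 and 2. RIP with TM7nox went from 2212 to 4577 with the block, 789 and 1070 in the pairs. The change of RIP over RNA by LPS went from 6 to 67 with DESeq2, 49 without the filter, 50 with the block, 27 with library totals, 0 and 13 in the pairs, and 11 without RNA DMSO replicate 1. The change by TM7nox went from 1 to 3 with DESeq2, 5 without the filter, 2 with library totals, 2 with the block, 0 in each pair, and 1 to 3 on leaving out a library (2 without RIP LPS+TM7nox replicate 1, 3 without RIP LPS replicate 3). Anti-HuR against IgG could not be fitted with replicates 1 and 2 alone, since every IgG library is replicate 3. Depth limits Ctsh, with at most 15 counts in a library, and RNA DMSO replicate 1.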
